A study of Homo sapiens with 12 samples.

Results

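PXDN, the gene of peroxidasin, and 9 genes of basement membrane proteins were followed in HCT116 cells, an established human colon carcinoma line. The others were the collagen IV chains COL4A1, COL4A2, COL4A5 and COL4A6, the laminin chains LAMA5, LAMB1 and LAMC1, nidogen-1 (NID1) and perlecan (HSPG2). These 10 genes were taken by name from a table of 60648 genes. The set was selected on the measured log2 fold change of PXDN between the genotypes in these data, and the partners were named from what is known of PXDN. Differences of these genes between the genotypes are therefore given as a description without a test, and their tests are limited to time in culture and to the interaction of genotype and time. Of the 10 genes, 9 passed the filter on low counts, which kept 18289 genes, and NID1 did not pass it.

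Basement membranes are thin sheets of matrix under epithelia, built on a network of laminin trimers and a network of collagen IV trimers that nidogen and perlecan help to join. A laminin trimer holds an alpha, a beta and a gamma chain, and a collagen IV trimer holds 3 alpha chains, in the combinations α1α1α2, α3α4α5 and α5α5α6. Peroxidasin is a secreted haem peroxidase that uses hydrogen peroxide and bromide to form the sulfilimine bonds that lock neighbouring collagen IV trimers together. In the colon, collagen IV with the α5 and α6 chains and laminins with the α5 chain lie under the epithelium.

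Poly-A selected RNA was sequenced in 4 groups of 3 libraries each. They were HCT116 cells wild type for MTHFD2 (WT) and MTHFD2 knock-out cells (KO), each taken at an initial harvest, which for the knock-out was directly after it was made, and again when 2 months in culture had passed (the final harvest). All knock-out libraries came from 1 clone made with CRISPR-Cas9, so the knock-out and the clone cannot be told apart, and no other agent is named in the labels. The series' design calls the 3 libraries of a group biological replicates, and the p-values measure the spread among them.

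Totals ran from 38597809 to 40017561 counts per library. Levels are given as CPM, the count of a gene scaled to a fixed library total after TMM normalization. The targeted gene, MTHFD2, a mitochondrial enzyme of one-carbon folate metabolism, ranged over 319 to 457 CPM in the 6 wild-type libraries and 123 to 155 CPM in the 6 knock-out libraries, so the groups kept to the order of their labels. Of 8 colon epithelial markers, all had more than 3 counts in at least 1 library, and their summed level ranged over 2624 to 3232 CPM at WT initial, 3061 to 3203 CPM at WT final, 2466 to 2705 CPM at KO initial and 2214 to 2589 CPM at KO final. All but VIL1 passed the filter on low counts, and of these 7 markers 0 rose and 2 fell in knock-out cells initially and 0 rose and 4 fell finally, where edgeR's quasi-likelihood test called 19.9% and 18.5% of all genes. CDH1, E-cadherin, chosen here after its values were seen, fell in the knock-out by 1.01 on the log2 scale (SE 0.134) at the initial harvest and by 0.44 (SE 0.133) at the final one, with adjusted p = 4.8e-05 and 0.029 in edgeR's quasi-likelihood test, the final call being lost without WT final replicate 1 (0.13) or KO final replicate 1 (0.096) or 3 (0.081). Of 11 markers of stromal, endothelial and blood cells, 5 had at most 3 counts in every library, and COL1A1 made most of the sum, which spanned 60.5 to 83.9 CPM in wild type and 43.2 to 66.0 CPM in the knock-out. The 6 that were tested went both ways: COL1A1 and COL3A1 fell and ACTA2 and PDGFRB rose at the initial harvest, and at the final one COL1A1 fell and ACTA2 and PDGFRB rose. ACTA2 went from 2.25 to 4.24 CPM and PDGFRB from 0.692 to 1.35 CPM between the means of WT and KO initial. The calls of COL1A1 at the final harvest (without WT final replicate 1 or KO final replicate 1) and of PDGFRB at the initial one (without KO initial replicate 1) were lost on leaving out 1 library. The part of the marker levels in the results below was not tested, and in bulk RNA fewer cells with a transcript and less of it per cell cannot be told apart.

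PXDN was close to absent in the knock-out at both harvests. Its level was 111, 95.9 and 103 CPM in the 3 WT initial libraries and 107, 93.5 and 94.8 CPM in the 3 WT final libraries. In the knock-out it was 1.36, 1.28 and 1.17 CPM at the initial harvest, from 54, 51 and 46 counts, and 1.69, 1.45 and 1.66 CPM at the final harvest, from 67, 57 and 66 counts. Every wild-type library thus lay far above every knock-out library. The knock-out mean was 1.23% of the wild-type mean at the initial harvest and 1.63% at the final harvest, or 81.3-fold and 61.5-fold lower. The fitted log2 fold changes were -6.34 (SE 0.116) and -5.94 (SE 0.112). Transcript was still counted in every knock-out library, well above the 3 counts used here as a floor.

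The PXDN level moved little with time in culture. In wild type the final-to-initial log2 fold change was -0.07 (95% interval -0.25 to 0.10, adjusted p = 0.68 in edgeR's quasi-likelihood test). In the knock-out it was 0.33 (0.03 to 0.63, adjusted p = 0.29), and the 3 final libraries all lay above the 3 initial ones. The difference of these 2 changes, the interaction, was 0.40 (0.05 to 0.75, adjusted p = 0.32). Neither change passed the threshold of 0.05 after adjustment over all genes tested.

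PXDN lies on the minus strand of chromosome 2, at chr2:1631887-1744852 in GRCh38, and no other gene of the table overlaps it. The sequences directly upstream of PXDN, LAMB1 and COL4A5, whose wild-type libraries all lay above all knock-out libraries, are shown because they are the stretches next to the starts of those transcripts. They come from RefSeq promoter windows on GRCh38, were cut to leave out bases of exons of these genes, and are written 5′ to 3′ on the strand of the gene, with CpG dinucleotides in capitals. The PXDN window is chr2:1744516-1744765, minus strand, 250 bases, which lies in the first intron of the longest PXDN model of the table. The LAMB1 window is chr7:108003214-108003411, minus strand, 198 bases. The COL4A5 window is chrX:108439588-108439837, plus strand, 250 bases, between the starts of COL4A5 and COL4A6, which are transcribed away from each other.
PXDN: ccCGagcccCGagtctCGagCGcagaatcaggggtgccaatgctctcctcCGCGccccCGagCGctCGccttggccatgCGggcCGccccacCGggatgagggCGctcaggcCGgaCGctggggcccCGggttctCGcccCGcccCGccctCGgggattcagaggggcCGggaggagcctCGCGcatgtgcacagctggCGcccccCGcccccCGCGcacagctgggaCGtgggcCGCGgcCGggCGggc
LAMB1: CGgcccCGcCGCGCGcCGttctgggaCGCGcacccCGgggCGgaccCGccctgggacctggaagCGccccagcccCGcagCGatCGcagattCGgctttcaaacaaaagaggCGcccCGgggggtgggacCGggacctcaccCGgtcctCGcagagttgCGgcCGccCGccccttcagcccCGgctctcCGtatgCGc
COL4A5: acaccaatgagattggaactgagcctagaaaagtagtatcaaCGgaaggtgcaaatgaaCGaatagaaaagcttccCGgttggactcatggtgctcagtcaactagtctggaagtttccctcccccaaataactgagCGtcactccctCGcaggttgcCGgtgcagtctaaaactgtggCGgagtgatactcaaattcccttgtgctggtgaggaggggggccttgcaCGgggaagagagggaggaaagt
The PXDN window held 32 CpG at a GC content of 78.4%, and 91.9% of 35116 RefSeq promoter windows of that length held as many or fewer. The LAMB1 window held 27 CpG at 75.3% GC, and 94.5% of windows of its length held as many or fewer. The COL4A5 window was poorer, with 8 CpG at 51.2% GC, against a median of 11 over all windows of that length. Of 5 motifs searched on both strands, GGGCGG was found 5 times in the PXDN window and 4 times in the LAMB1 window, where 42.6% and 34.5% of all windows of those lengths held it. In each window a pair of these matches shared bases. The motif CCAAT was found 1 time in the PXDN window and 2 times in the COL4A5 window, against 32.0% of windows with a match. The E-box CACGTG had no match in these windows, where 6.34% of windows of 250 bases held it. There was also none for TGACTCA, held by 4.2% of them, and none for TATAAA, held by 10.7%. These are matches of letters, not sites of binding.

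Within 3 Mb on either side, 18 other genes were tested, with a median log2 fold change between genotypes of 0.09 at the initial harvest and 0.13 at the final one. At the initial harvest 2 of the 18 were lower and 0 were higher in edgeR's quasi-likelihood test, and at the final harvest 2 were lower and 1 was higher, against 19.9% and 18.5% of all genes called. The genes that were lower at both harvests were FAM110C, with log2 fold changes of -0.51 (SE 0.0894) and -0.63 (SE 0.0897), and SNTG2. The gene higher at the final harvest was ADI1, at 0.31 (SE 0.0894). Its call was lost without the filter (adjusted p = 0.15), with only the groups compared (0.055) and without WT final replicate 2 or 3 or KO final replicate 1 or 3 (0.063 to 0.098). FAM110C and ADI1 were chosen after their values were seen.

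SNTG2, syntrophin gamma-2, was the nearest tested gene on 1 side of PXDN, and it was itself scarce. It held 5 or more counts in every wild-type library and at most 2 in any knock-out library. Taking 3 counts per library as the floor, it was at least 2.29-fold lower in knock-out cells initially and at least 11.8-fold lower finally. The initial call was near the threshold (adjusted p = 0.048 in edgeR's quasi-likelihood test). Its wild-type mean rose from 0.173 CPM initially to 0.897 CPM finally, a log2 fold change of 2.35. The larger final bound thus comes from the wild-type level, and no further loss in the knock-out is read from it. EIPR1, the nearest tested gene on the other side, did not pass the test, with log2 fold changes of 0.24 (SE 0.131) and 0.16 (SE 0.131).

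**Figure D1:**
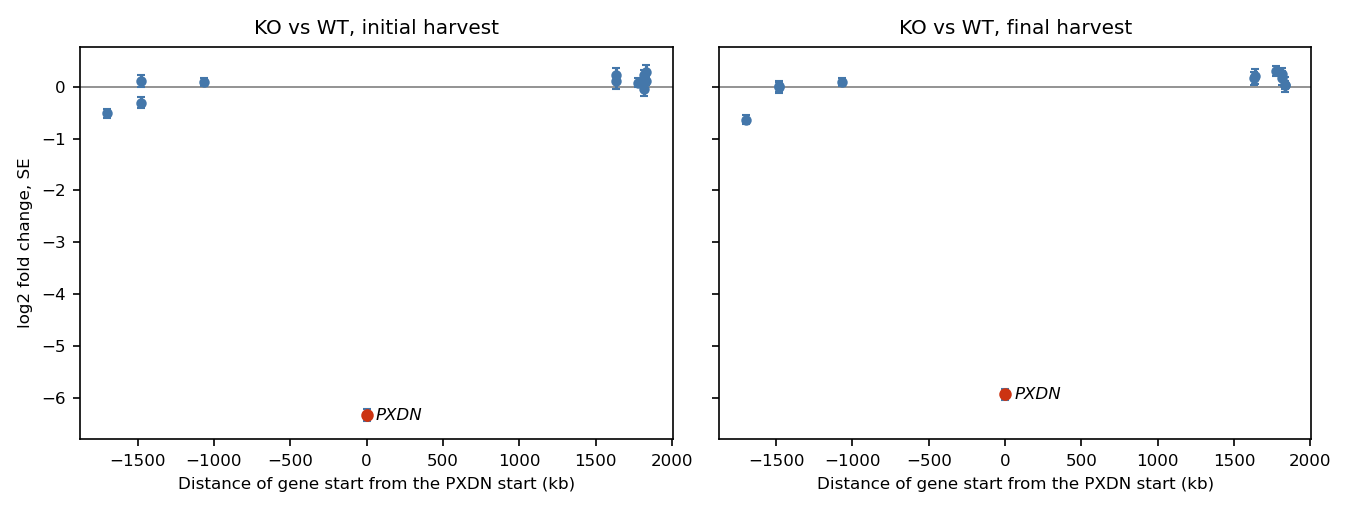
Log2 fold change of knock-out against wild type, with its SE, for PXDN (red) and genes within 3 Mb with an average log2 CPM of at least 1 (blue), by distance of their starts in kb, at the initial (left) and the final harvest (right). PXDN lies at -6.34 and -5.94 while the neighbours drawn lie near 0, the lowest of them, FAM110C, at -0.51 and -0.63. SNTG2, the nearest tested gene on 1 side, was also lower in the knock-out but falls under this level and is not drawn.

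Of the related peroxidases PXDNL, MPO, EPX and LPO, only EPX, eosinophil peroxidase, passed the filter on low counts. EPX stood at 1.82 ± 0.353 CPM (SD, n = 3) at WT initial, 2.12 ± 0.378 at WT final, 1.76 ± 0.138 at KO initial and 1.95 ± 0.398 at KO final. Its log2 fold changes between genotypes were -0.05 (SE 0.197) and -0.12 (SE 0.193), and it was called at neither harvest (adjusted p = 0.90 and 0.73 in edgeR's quasi-likelihood test).

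Over the 12 libraries, the genes most like PXDN in log2 CPM were RNF43 (Pearson r = 0.997), GMDS (0.996), RIPK1 (0.995), ADAM19 (0.995) and GAPVD1 (0.994), among 12606 genes with an average log2 CPM of at least 1. The 12 points fall into 2 sets by genotype and share 1 knock-out clone, so no p is given. GMDS had at most 2 counts in any knock-out library against 17.1 ± 1.75 CPM at WT initial, at least 225-fold lower. Of the set itself, COL4A5, COL4A6, LAMA5, LAMB1, LAMC1 and HSPG2 also had an average log2 CPM of at least 1. Among these, LAMB1 was most like PXDN (0.973), then COL4A5 (0.873) and COL4A6 (0.852), and HSPG2 ran the other way (-0.813). Basement membrane genes outside the set were not ranked.

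**Figure D2:**
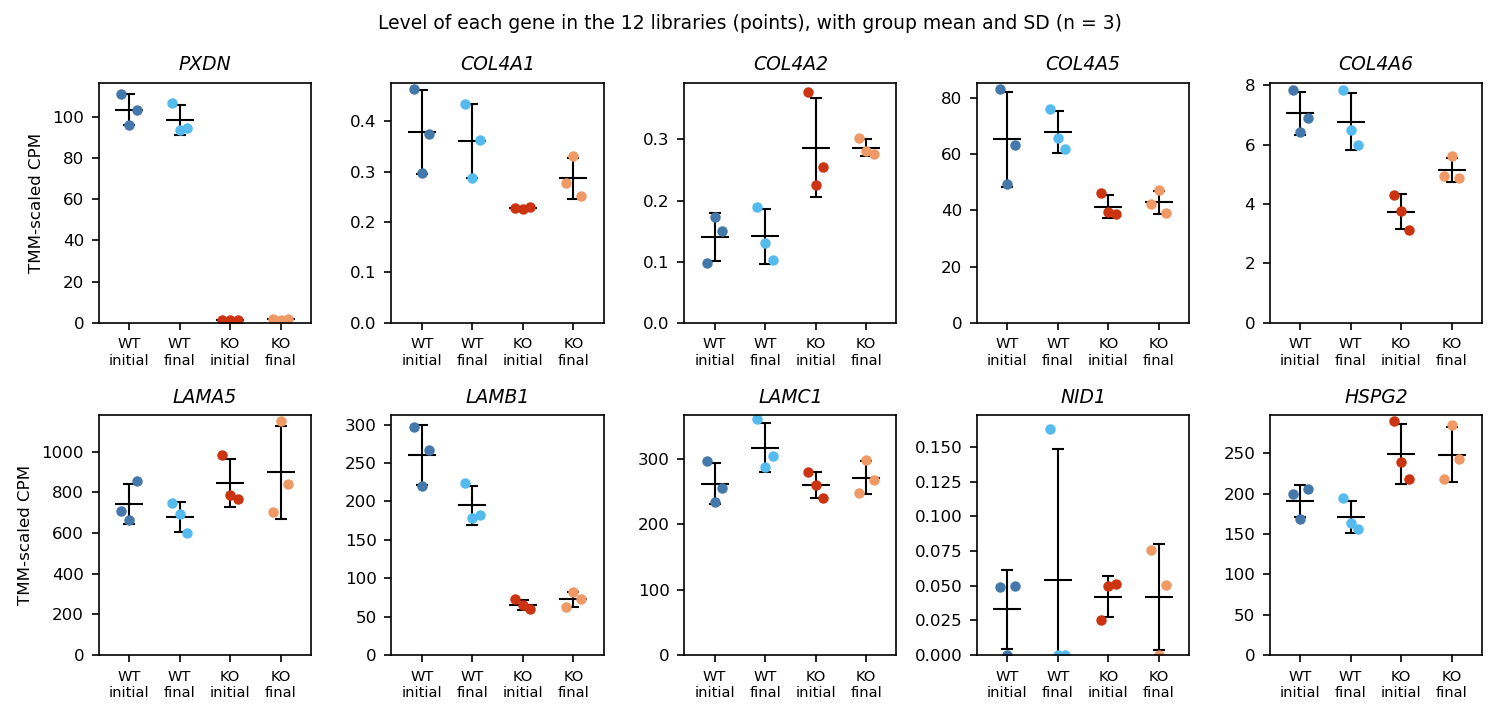
TMM-scaled CPM of PXDN and the 9 basement membrane genes in the 12 libraries (points), with the mean and SD of each group (n = 3); each panel has its own axis from 0. PXDN is at 93.5 CPM or more in wild type and at 1.69 CPM or less in the knock-out, LAMB1, COL4A5 and COL4A6 are lower in the knock-out, HSPG2 is higher, and COL4A1, COL4A2 and NID1 are close to 0 throughout.

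Of the collagen IV chains, which PXDN crosslinks, COL4A5, the α5 chain, had the highest mean level per kb of exon in each of the 4 groups. COL4A5 measured 83.0, 49.4 and 63.3 CPM at WT initial and 76.2, 65.7 and 61.7 CPM at WT final. In the knock-out it was 46.1, 39.3 and 38.6 CPM at the initial and 42.2, 47.2 and 39.1 CPM at the final harvest. All wild-type libraries lay above all knock-out libraries, although the lowest of them, WT initial replicate 2, was only slightly above the highest knock-out libraries. The log2 fold change was -0.66 at both harvests (SE 0.147 each). Without WT initial replicate 1 the initial value was the smallest of those that left out 1 library, -0.45.

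COL4A6, which joins α5 in the α5α5α6 trimer, was the scarcer partner and also lower in the knock-out. Its level was 7.84, 6.42 and 6.91 CPM at WT initial and 7.84, 6.49 and 6.0 CPM at WT final, against 4.31, 3.76 and 3.14 CPM at KO initial and 4.93, 5.61 and 4.87 CPM at KO final. The groups did not overlap at either harvest. The log2 fold change was -0.92 (SE 0.143) at the initial harvest and -0.40 (SE 0.140) at the final one. Within the knock-out all 3 final libraries lay above the initial ones, by 0.46 on the log2 scale (95% interval 0.15 to 0.77), which did not pass after adjustment (adjusted p = 0.14 in edgeR's quasi-likelihood test). The interaction was 0.52 (0.09 to 0.94, adjusted p = 0.29).

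The classical pair COL4A1 and COL4A2, the most widespread collagen IV chains in the body, was almost silent. COL4A1 had 19, 12 and 15 counts at WT initial, 16, 11 and 14 at WT final, 9 in each KO initial library and 11, 13 and 10 at KO final. COL4A2 had 4, 7 and 6 counts at WT initial, 7, 5 and 4 at WT final, 15, 9 and 10 at KO initial and 12, 11 and 11 at KO final. COL4A1 was thus lower and COL4A2 higher in knock-out cells at the initial harvest, where neither gene's groups overlapped. The log2 fold changes were -0.73 (SE 0.308) and -0.33 (SE 0.301) for COL4A1 and 1.02 (SE 0.377) and 1.01 (SE 0.382) for COL4A2, with wide errors at such counts. These genes overlap head to head on chromosome 13, and strand use in the counting was not given in the sources used here.

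Per kb of exon, COL4A5 stood at 5.50 ± 1.42 CPM at WT initial and 3.48 ± 0.348 CPM at KO initial (SD, n = 3). That was 212 ± 8.08 times COL4A1 at WT initial, 237 ± 40.2 at WT final, 225 ± 23.0 at KO initial and 185 ± 8.50 at KO final. The ratio of COL4A5 to COL4A6 per kb was 7.15 ± 1.13, 7.85 ± 0.231, 8.72 ± 0.780 and 6.51 ± 0.214 in the same order. The partners of α5 in the α3α4α5 trimer, COL4A3 and COL4A4, were chosen here after their values were seen, and they stood nearer to it. COL4A3 was at 1.51, 1.16, 0.943 and 1.40 CPM per kb and COL4A4 at 2.26, 2.59, 1.49 and 2.16 CPM per kb in that order. The ratio of COL4A5 to COL4A4 was 2.42 ± 0.0995, 2.20 ± 0.0815, 2.33 ± 0.0727 and 1.67 ± 0.0376, so COL4A5 led in every library but by less than over COL4A6. Both fell at the initial harvest, by 0.68 (SE 0.169) and 0.60 (SE 0.145) on the log2 scale, with adjusted p = 0.0087 and 0.0075 in edgeR's quasi-likelihood test, COL4A4 by 0.39 without WT initial replicate 1. At the final harvest neither passed, at 0.27 (SE 0.168, adjusted p = 0.30) and -0.26 (SE 0.143, adjusted p = 0.23).

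**Figure D3:**
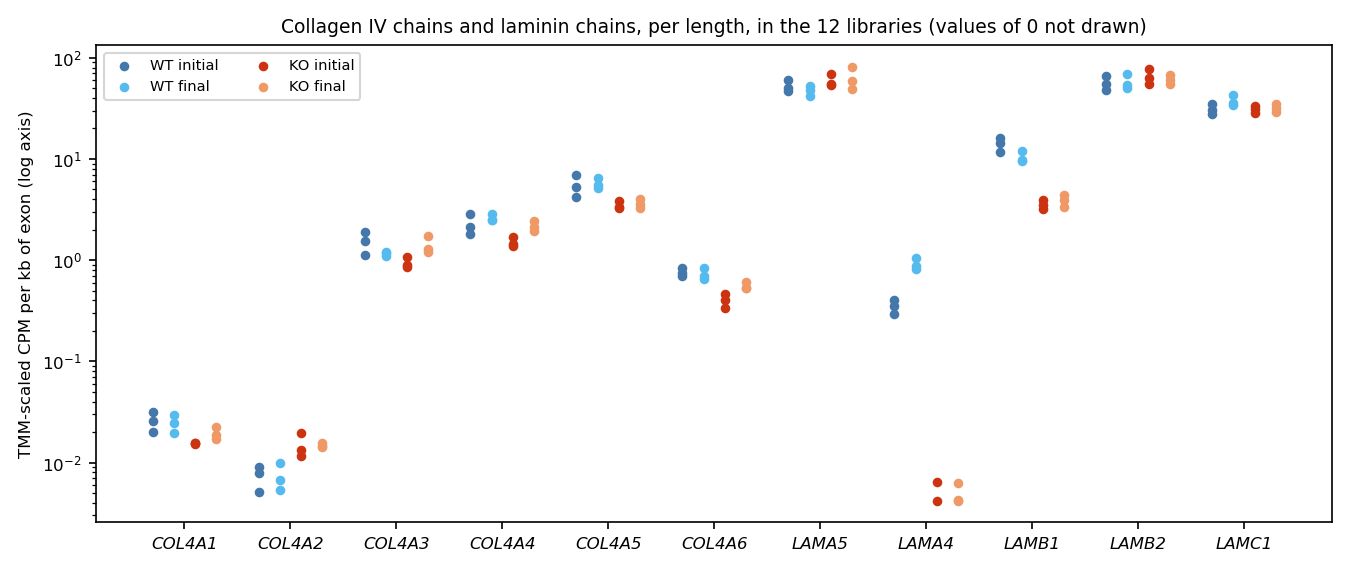
TMM-scaled CPM per kb of exon (log axis) of the 6 collagen IV chains and of 5 laminin chains in the 12 libraries (points; values of 0 are not drawn), colored by group. COL4A5 leads the collagen IV chains, COL4A1 and COL4A2 lie at the bottom, LAMB1 is lower in both knock-out groups, and LAMA4 is near the floor there.

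Among the laminin chains, LAMB1 was lower in the knock-out, while LAMA5 and LAMC1 overlapped between the genotypes. LAMB1 encodes β1, the beta chain of the most widespread laminins. It measured 297, 220 and 267 CPM at WT initial and 224, 178 and 183 CPM at WT final, against 72.3, 64.7 and 59.7 CPM at KO initial and 62.4, 82.4 and 72.4 CPM at KO final. Every knock-out library lay far below every wild-type library. Initially the knock-out mean was 3.98-fold lower and finally 2.69-fold lower, with log2 fold changes of -1.99 (SE 0.131) and -1.43 (SE 0.129). LAMB1 overlaps DLD on the other strand, a gene with 59118 counts over the 12 libraries, and without a stated use of strand the reads where they overlap cannot be told apart.

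LAMB1 also gave the largest time change in wild type among the 9 tested genes, but it did not pass. The log2 fold change from initial to final was -0.42 (95% interval -0.69 to -0.16, adjusted p = 0.058 in edgeR's quasi-likelihood test), and the highest WT final library lay just above the lowest WT initial one. In DESeq2 it passed (adjusted p = 0.024), and in edgeR it passed without the filter on low counts (0.0011) and without WT initial replicate 2 (0.014), WT final replicate 1 (0.019) or KO final replicate 2 (0.049). In the knock-out the change was 0.14 (-0.13 to 0.41, adjusted p = 0.65). The interaction was 0.56 (0.18 to 0.94, adjusted p = 0.17), which passed without the filter (0.010) and without WT initial replicate 2 (0.042).

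LAMA5 and LAMC1 are the alpha and gamma chains that join β1 in laminin-511. LAMA5 measured 711, 664 and 855 CPM at WT initial, 747, 693 and 600 CPM at WT final, 983, 787 and 768 CPM at KO initial and 705, 1152 and 843 CPM at KO final. Its log2 fold changes between genotypes were 0.19 (SE 0.158) and 0.40 (SE 0.158), the latter 0.19 without KO final replicate 2, the highest library, and 0.55 without KO final replicate 1, the lowest one. LAMA5 overlaps ADRM1 on the other strand, which had 49550 counts over the 12 libraries. LAMC1 measured 296, 233 and 256 CPM at WT initial, 360, 287 and 304 CPM at WT final, 279, 261 and 240 CPM at KO initial and 247, 298 and 268 CPM at KO final, with log2 fold changes of -0.01 (SE 0.110) and -0.23 (SE 0.110).

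LAMB1 stood lower in the knock-out against LAMC1 and against the beta chains LAMB2 and LAMB3. Per kb, LAMB1 was 0.452 ± 0.0231 times LAMC1 at WT initial, 0.279 ± 0.00507 at WT final, 0.115 ± 0.00271 at KO initial and 0.121 ± 0.00582 at KO final (SD, n = 3). LAMB2, the beta chain β2, was chosen here after its values were seen and did not pass in either genotype comparison, with log2 fold changes of 0.21 (SE 0.147, adjusted p = 0.35 in edgeR's quasi-likelihood test) and 0.07 (SE 0.147, adjusted p = 0.79). The ratio of LAMB1 to LAMB2 per kb was 0.250 ± 0.00864, 0.182 ± 0.0111, 0.0547 ± 0.00378 and 0.0638 ± 0.00230 in the order of the groups above. LAMB3, the beta chain β3, was likewise chosen after its values were seen. Per kb it lay above LAMB1 in every library, with ratios of LAMB1 to LAMB3 of 0.561 ± 0.0602, 0.341 ± 0.0151, 0.0840 ± 0.00295 and 0.0955 ± 0.00548. In CPM not divided by length, the wild-type means of LAMB1 were above those of LAMB3, 261 against 116 initially and 195 against 143 finally. The knock-out means of LAMB1 were below, 65.6 against 195 and 72.4 against 189. LAMB3 rose in the knock-out by 0.75 (SE 0.109, adjusted p = 1.1e-04) and 0.40 (SE 0.108, adjusted p = 0.016) in edgeR's quasi-likelihood test, the latter call being lost without WT final replicate 2 or 3 or KO final replicate 2 or 3 (adjusted p from 0.054 to 0.096). In each of these 3 ratios no wild-type library overlapped a knock-out library.

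Of the linkers, perlecan was higher in the knock-out and nidogen-1 was scarcely counted. HSPG2 measured 199, 169 and 206 CPM at WT initial, 194, 163 and 157 CPM at WT final, 290, 240 and 219 CPM at KO initial and 218, 285 and 243 CPM at KO final. All knock-out libraries lay above all wild-type libraries of both harvests. The log2 fold changes were 0.38 (SE 0.125) and 0.54 (SE 0.125), and over the fits that left out 1 library the initial value ran from 0.27 to 0.47. NID1 had 2, 0 and 2 counts at WT initial, 6, 0 and 0 at WT final, 1, 2 and 2 at KO initial and 3, 0 and 2 at KO final, so no fold is given.

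Per kb of exon, the order of the mean levels in wild type at both harvests was LAMA5, LAMC1, LAMB1, HSPG2, PXDN, COL4A5, COL4A6 and COL4A1, followed by COL4A2 and NID1 at near-zero counts. The means at WT initial were 52.0, 31.0, 14.0, 10.6, 9.18, 5.50, 0.760 and 0.0258 CPM per kb. The libraries of HSPG2 and PXDN overlapped at both harvests, as did those of LAMB1 and HSPG2 and of LAMA5 and LAMC1 at the final one. In the knock-out HSPG2 stood above LAMB1, and PXDN dropped below COL4A6 to the seventh place, at 0.113 ± 0.00837 CPM per kb at the initial harvest and 0.142 ± 0.0112 at the final one. LAMB1 and COL4A5 overlapped in the knock-out at both harvests, with means of 3.53 and 3.48 CPM per kb at the initial one. This order depends on the exon lengths used. Not divided by length, the WT initial means of LAMB1 and LAMC1 were 261 and 262 CPM.

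Over the 9 tested genes, 5 were called between genotypes at the initial harvest (HSPG2 higher, and PXDN, COL4A5, COL4A6 and LAMB1 lower), where edgeR's quasi-likelihood test called 19.9% of all 18289 genes, 8.55% higher and 11.3% lower. At the final harvest 4 were called, the same without COL4A6, where 18.5% of all genes were called, 8.38% higher and 10.2% lower. Since these genes were proposed from this contrast, nothing is read from those counts, nor from the ranges and medians that follow. The groups' ranges did not overlap for 7 of the 9 at the initial harvest and 6 at the final one, against 35.5% and 33.1% of all genes. The median log2 fold change of the 9 was -0.66 at the initial harvest and -0.33 at the final one, against 0.00 over all genes.

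With time in culture, edgeR's quasi-likelihood test called 0 of the 9 genes in wild type and 0 in the knock-out, where it called 6.47% of all genes (3.05% higher, 3.42% lower) and 1.48% (0.837% higher, 0.64% lower). At an unadjusted p under 0.05 there were 2 in wild type, LAMB1 and LAMC1, and 2 in the knock-out, PXDN and COL4A6, and DESeq2 called 1 and 0. LAMC1 was at 0.28 on the log2 scale in wild type (95% interval 0.04 to 0.51, adjusted p = 0.16). The interaction called 0 of the 9 where it called 1.28% of all genes (0.809% higher, 0.476% lower), with 3 at an unadjusted p under 0.05 (PXDN, COL4A6 and LAMB1) and 0 by DESeq2. The median log2 fold changes of the 9 were -0.07 with time in wild type, 0.09 with time in the knock-out and 0.22 for the interaction, against 0.01, 0.00 and 0.01 over all genes. Each time comparison shares its initial libraries with the genotype comparison at the initial harvest. Between groups of the same genotype the ranges did not overlap for 0 of the 9 in wild type and 3 in the knock-out (PXDN, COL4A1 and COL4A6), against 22.2% and 23.2% of all genes.

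**Figure D4:**
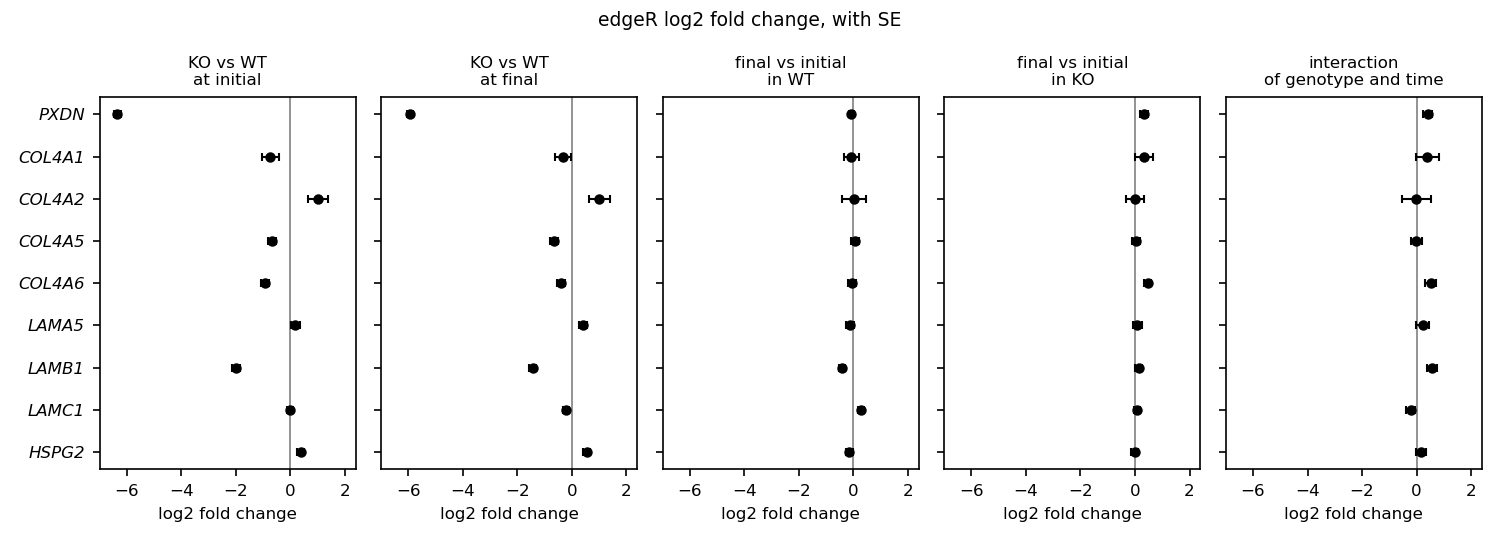
Log2 fold change with its SE (edgeR) of the 9 tested genes in the 5 comparisons, 1 panel each, on a shared axis. The genotype panels spread from -6.34 for PXDN to 1.02 for COL4A2, while the time and interaction panels stay between -0.42 (LAMB1, time in wild type) and 0.56 (LAMB1, interaction).

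Within the groups, the same replicate was often the highest over these genes. WT final replicate 1 was the highest of its group for all 9 tested genes, where it was the highest for 41.1% of 12607 genes with an average log2 CPM of at least 1, and its TMM factor was the lowest of all, 0.927. KO initial replicate 1 was the highest for 8 of the 9, against 33.5% of those genes, and KO final replicate 2 for 7 of the 9, against 32.9%. Without TMM scaling, WT final replicate 1, KO initial replicate 1 and KO final replicate 2 were still the highest for 9, 8 and 7 of the 9. WT initial replicate 2 was the lowest for 8 of the 9. The part of this shared movement in the results was not tested.

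Beyond the 9 genes, other basement membrane components went both ways between the genotypes. Of 29 listed, 23 were tested. In edgeR's quasi-likelihood test 5 rose and 5 fell in knock-out cells at the initial harvest and 5 rose and 4 fell at the final one, 43.5% and 39.1% of those tested against 19.9% and 18.5% of all genes, with medians of 0.03 and 0.07, unchanged with LAMA4 set to its bound. No list was tested against other genes. LAMA4, the α4 chain of laminins best known from vessels and muscle, was close to absent in the knock-out. It measured 4.25, 3.51 and 4.81 CPM at WT initial and 12.6, 9.85 and 10.4 CPM at WT final, and it had at most 3 counts in every knock-out library. It was at least 55.2-fold lower in knock-out cells initially and at least 145-fold lower finally. In wild type it rose with time by 1.39 on the log2 scale (SE 0.157, adjusted p = 5.3e-05).

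SPARC, a secreted glycoprotein that binds collagen IV, went the opposite way. It measured 48.7, 37.6 and 47.4 CPM at WT initial and 23.5, 18.1 and 18.3 CPM at WT final, against 286, 277 and 257 CPM at KO initial and 208, 224 and 218 CPM at KO final. Every knock-out library lay far above every wild-type library. SPARC rose in the knock-out by 2.62 (SE 0.114) and 3.44 (SE 0.120) on the log2 scale, with adjusted p = 1.5e-10 and 5.7e-12 in edgeR's quasi-likelihood test. It fell by 1.16 with time in wild type (SE 0.113, adjusted p = 1.3e-05), was at -0.34 in the knock-out (SE 0.107, adjusted p = 0.14), and its interaction passed at 0.82 (SE 0.155, adjusted p = 0.013), but not without WT initial replicate 3, WT final replicate 2 or 3 or KO initial replicate 3 (adjusted p from 0.051 to 0.056).

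With time, 3 of the 23 other basement membrane genes rose and 4 fell in wild type, 1 rose and 1 fell in the knock-out, and only SPARC of the list passed in the interaction in edgeR's quasi-likelihood test. These were 30.4%, 8.7% and 4.35% of those tested, against 6.47%, 1.48% and 1.28% of all genes.

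Of 24 genes that fold, modify, export or crosslink collagen, all tested, 6 rose and 1 fell in knock-out cells at the initial harvest and 3 rose and 2 fell at the final one in edgeR's quasi-likelihood test, with medians of 0.08 and 0.07. These were 29.2% and 20.8% of the list, against 19.9% and 18.5% of all genes. LOXL4, a lysyl oxidase that crosslinks collagen by a route other than that of peroxidasin, measured 10.3, 8.57 and 9.51 CPM at WT initial and 8.36, 7.24 and 7.24 CPM at WT final. In the knock-out it was 35.7, 33.6 and 29.1 CPM at the initial and 25.5, 29.9 and 29.4 CPM at the final harvest, and the genotypes were far apart at both. LOXL4 rose by 1.79 (SE 0.109) and 1.89 (SE 0.111) on the log2 scale, with adjusted p = 8.1e-09 and 4.0e-09.

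SERPINH1, the collagen chaperone HSP47, rose by 0.72 (SE 0.101, adjusted p = 7.3e-05) initially and 0.30 (SE 0.100, adjusted p = 0.048) finally in edgeR's quasi-likelihood test. Its final call was lost with only the groups compared (adjusted p = 0.078) and without any 1 of the libraries except WT initial replicates 1 and 2 and WT final replicate 1, reaching 0.25 without WT final replicate 2. TGM2, transglutaminase 2, which crosslinks matrix proteins through glutamine and lysine, fell by 0.51 (SE 0.107, adjusted p = 0.0028) and 0.38 (SE 0.109, adjusted p = 0.021). It also fell with time, by 0.64 in wild type (SE 0.107, adjusted p = 0.0017) and by 0.51 in the knock-out (SE 0.108, adjusted p = 0.025), with an interaction of 0.13 (SE 0.152, adjusted p = 0.79). The final genotype call of TGM2 was lost without WT final replicate 2 or 3 or KO final replicate 1 or 2 (adjusted p from 0.054 to 0.087), and the call with time in the knock-out without KO initial replicate 2 or 3 or KO final replicate 1 or 2 (0.11 to 0.14). With time, 1 gene of the list rose and 2 fell in wild type, 0 rose and 1 fell in the knock-out, and 0 passed in the interaction. The shares were 12.5%, 4.17% and 0% of the list, against 6.47%, 1.48% and 1.28% of all genes.

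Of 15 receptors of basement membranes, all tested, 3 rose and 6 fell in knock-out cells at the initial harvest, and 3 rose and 3 fell at the final one, with medians of -0.20 and -0.24. That was 60% and 40% of the list, against 19.9% and 18.5% of all genes. ITGA2, the α2 chain of a collagen-binding integrin, fell from 307 ± 73.4 to 144 ± 15.1 CPM at the initial and from 247 ± 26.2 to 150 ± 17.2 CPM at the final harvest (SD, n = 3). Its log2 fold changes were -1.09 (SE 0.146) and -0.73 (SE 0.145), with adjusted p = 5.0e-05 and 0.0019 in edgeR's quasi-likelihood test. SDC1, syndecan-1, an epithelial heparan sulfate proteoglycan, rose by 0.87 (SE 0.0949, adjusted p = 5.6e-06) and 0.45 (SE 0.0944, adjusted p = 0.0029). ADGRG6, an adhesion receptor that binds collagen IV, rose by 0.41 (SE 0.110, adjusted p = 0.015) and 0.69 (SE 0.110, adjusted p = 2.6e-04), the former call being lost without KO initial replicate 2 (adjusted p = 0.051). With time, 0 of the 15 rose and 1 fell in wild type, 0 passed in the knock-out and 0 in the interaction. The shares were 6.67%, 0% and 0% of the list, against 6.47%, 1.48% and 1.28% of all genes.

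Of 16 genes of matrix turnover, 15 were tested, and 1 rose and 2 fell at the initial harvest and 2 rose and 3 fell at the final one in edgeR's quasi-likelihood test, with medians of 0.03 and -0.12. The share called was 20% and 33.3%, against the same 19.9% and 18.5% of all genes. TIMP3, an inhibitor of metalloproteinases that stays bound to the matrix, measured 5.23, 4.72 and 7.11 CPM at WT initial, 13.6, 11.6 and 11.5 CPM at WT final, 6.18, 5.94 and 5.33 CPM at KO initial and 3.75, 3.98 and 3.84 CPM at KO final. The genotypes overlapped at the initial harvest and were apart at the final one. TIMP3 was at 0.03 between genotypes at the initial harvest (SE 0.141, adjusted p = 0.90 in edgeR's quasi-likelihood test). At the final one it was lower in the knock-out by 1.67 (SE 0.142, adjusted p = 3.1e-07), and the interaction passed at -1.70 (SE 0.200, adjusted p = 2.3e-04). With time its mean rose from 5.68 to 12.3 CPM in wild type, by 1.11 on the log2 scale, and this was called. In the knock-out the mean went from 5.82 to 3.86 CPM, which was not called.

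TIMP1 and TIMP2, the soluble inhibitors, did not pass at the initial harvest, at -0.10 (SE 0.101) and 0.07 (SE 0.0785). At the final harvest TIMP1 fell by 0.37 (SE 0.101, adjusted p = 0.016) and TIMP2 rose by 0.26 (SE 0.0787, adjusted p = 0.030) in edgeR's quasi-likelihood test. The TIMP1 call was lost without WT final replicate 1 (adjusted p = 0.076) or KO final replicate 1 (0.087), and the TIMP2 call without the filter (0.099) and without WT final replicate 2 (0.13) or 3 (0.12) or KO final replicate 2 (0.10) or 3 (0.092). With time, 1 of the 15 rose and 2 fell in wild type, 0 passed in the knock-out, and only TIMP3 of the list passed in the interaction. The shares were 20%, 0% and 6.67% of those tested, against 6.47%, 1.48% and 1.28% of all genes.

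**Figure D5:**
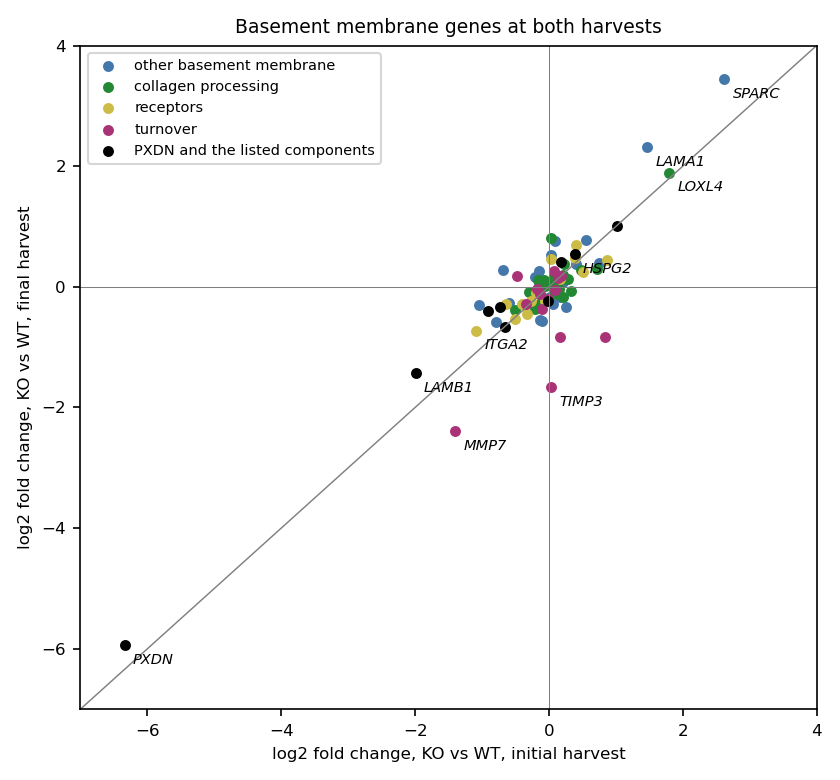
Log2 fold change between genotypes (knock-out over wild type), initially (horizontal) and at the final harvest (vertical), for the tested genes of the lists, colored by list, with the line of equal values; LAMA4 and ADAMTS1, which have a group at the floor, are not drawn. PXDN lies alone at the lower left, LAMB1 and MMP7 next, SPARC, LAMA1 and LOXL4 at the upper right, and TIMP3 below the line at 0.03 and -1.67.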

How the data were processed

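Poly-A selected RNA of 12 HCT116 libraries was analysed from the deposited table of raw counts per gene, laid out as featureCounts writes it, per the file headers. The submitters' processing notes name STAR, featureCounts, Subread and hg38. The annotation release, strand use and the treatment of multi-mapping reads are not given in the sources used here. Of the gene versions, 37318 also occur in GENCODE 29, all with identical GRCh38 coordinates. A gene broken over 5 lines of the table was left out.

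Counts were filtered with filterByExpr by group (18289 of 60648 genes kept), scaled with TMM and modelled in R 4.3.3 with edgeR 4.0.16, on limma 3.58.1, by a robust quasi-likelihood fit over the 12 libraries that gave every group its own mean (4 in all). Calls used a Benjamini-Hochberg adjusted p under 0.05 over all genes tested. Totals ran from 38597809 to 40017561 counts, and folds against a group with at most 3 counts in every library are lower bounds at 3 counts per library, which cover counting error only. On simulated counts for the comparison of harvests in the knock-out (18289 genes, 200 of them changed), 98% of the 2-fold and 83% of the 1.5-fold changes were recovered, with 6 false among 187 calls. The changed genes were drawn above a minimum mean level that COL4A1, COL4A2 and SNTG2 do not reach, so this recovery does not cover such scarce genes. The simulated libraries varied independently, without the movement shared by genes within a replicate.

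The 10 genes, the lists and the rules were chosen with earlier results of these data known. Named beside the 10 were MTHFD2, the 3 genes of each list with the largest genotype difference averaged over harvests (adjusted p under 0.05, average log2 CPM at least 1), list genes called in the interaction, tested peroxidases, the nearest tested gene on each side of PXDN, and the 5 genes most correlated with PXDN (log2 CPM with a prior count of 2). Items withheld from the text are not reported here. Level per kb divides by the exon length in the table, 18592 bases for LAMB1 and 8446 for LAMC1. Comparisons between genes per kb depend on these lengths, and the lengths of the transcripts present were not measured. The alternatives were DESeq2 1.42.0, RLE scaling, no filter, only the groups compared, a replicate block and leaving out each library in turn.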

Additional observations from a re-analysis of the deposited data

Results flagged for a closer look

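For SPARC and TIMP3 the genotype difference changed between the harvests in edgeR's quasi-likelihood test of the interaction. The SPARC interaction was 0.82 on the log2 scale (adjusted p = 0.013): the knock-out was above wild type at both harvests, by 2.62 and then by 3.44, with all 3 knock-out libraries above all 3 wild-type libraries each time. Its call was lost without WT initial replicate 3 (adjusted p = 0.051), WT final replicate 2 (0.056), WT final replicate 3 (0.051) or KO initial replicate 3 (0.053). The TIMP3 interaction was -1.70 (adjusted p = 2.3e-04), from a genotype difference of 0.03 initially and -1.67 finally, and it passed in every fit that left out 1 library. The TIMP3 mean rose from 5.68 to 12.3 CPM with time in wild type and went from 5.82 to 3.86 CPM in the knock-out.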

How the results depend on the processing

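The fold changes of the tested and named genes gave 1907 values over 40 genes under the alternatives, of which 1785 kept their direction and their side of the threshold, 64 lost the call, 16 gained it and 42 turned sign, all from values that had not been called. COL4A1 and COL4A2 had 4 to 19 counts per library, and the SEs of their log2 fold changes between genotypes ran from 0.301 to 0.382. For the tested members, the count with time in wild type was 1 without the filter and 1 in DESeq2, and 0 to 1 on leaving out each library. The interaction count was 1 without the filter and 0 to 1 on leaving out each library. The genotype count at the initial harvest was 4 to 5 on leaving out each library, since HSPG2 lost its call without WT initial replicate 2 or 3 or KO initial replicate 1 or 2. At the final harvest COL4A6 gained a call without the filter, with the replicate block and in DESeq2, and LAMA5 without the filter. The set was selected on the genotype contrast, so these genotype calls are a description, and nothing is read from their being kept, lost or gained. Fewer or more genes tested and fewer samples differ between these fits, and the cause of the changes was otherwise not tested.

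Of the 78 tested genes of the other lists, 29 were called between genotypes at the initial harvest, with 19 to 32 on leaving out each library. Over all genes 3635 (19.9%) were called there, with 2423 to 4615 on leaving out each library. With time in wild type 14 were called, with 8 in a fit of only the groups compared and 9 to 15 on leaving out each library. All genes gave 1183 calls (6.47%), with 578 and 627 to 1399 in the same fits. With time in the knock-out 3 were called, with 9 without the filter, 12 in a fit of only the groups compared, 9 in DESeq2 and 0 to 8 on leaving out each library. The calls over all genes moved too, from 270 (1.48%) to 484, 728, 602 and 94 to 463 in these fits. In the interaction 2 were called, with 7 without the filter, 5 in DESeq2 and 1 to 6 on leaving out each library. For all genes the interaction calls were 235 (1.28%), then 423, 472 and 124 to 444.

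Log2 fold changes near 0 turned sign. COL4A2 with time in the knock-out was 0.000219 with RLE scaling and 0.000301 in DESeq2. On leaving out each library, values ran from -0.23 to 0.10 (COL4A1), -0.26 to 0.19 (COL4A2), -0.11 to 0.27 (COL4A5) and -0.18 to 0.024 (COL4A6) with time in wild type. With time in the knock-out they ran from -0.15 to 0.24 (COL4A2), -0.030 to 0.13 (COL4A5), -0.13 to 0.23 (LAMA5), -0.018 to 0.11 (LAMC1) and -0.12 to 0.11 (HSPG2). The interaction ran from -0.19 to 0.26 (COL4A2), -0.22 to 0.16 (COL4A5) and -0.0066 to 0.35 (LAMA5). Between genotypes at the initial harvest they ran from -0.091 to 0.088 (LAMC1), -0.086 to 0.22 (TIMP3) and -0.20 to 0.080 (EPX), and at the final harvest from -0.29 to 0.029 (EPX) and from -0.025 to 0.23 (LAMB2), where LAMB2 was at -0.017 without KO final replicate 2.

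The replicate numbers gave no pairing shared by all groups: the deviations of libraries with the same number correlated from -0.59 to 0.53. In comparisons with KO final they ran from -0.59 to 0.19, and among the other groups from -0.040 to 0.53. Some libraries with different numbers moved together. KO final replicate 2 correlated with replicate 1 of WT initial, WT final and KO initial at 0.55, 0.55 and 0.62. KO final replicate 3 correlated with WT initial replicate 2 at 0.73 and with WT initial replicate 1 at -0.77. Deviations were thus shared between groups, but in KO final not by number. The replicate block used the numbers as labelled, and a pairing by other numbers was not tested. With the replicate block 5, 5, 0, 0 and 0 of the tested members were called between genotypes at the 2 harvests, with time in wild type, with time in knock-out cells and in the interaction. The genotype counts are again a description only. Under the block COL4A2 was at 0.00485 with time in the knock-out and 0.00394 in the interaction, and HSPG2 at 0.00482 with time in the knock-out.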
